A study of Homo sapiens with 4 samples.

Results

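The genes followed were the 4 TEAD transcription factors (TEAD1 to TEAD4), the TEAD-binding protein VGLL4, and the angiomotins AMOT, AMOTL1 and AMOTL2. The secreted proteins CCN1 and CCN2 completed the set. The cells were SCC-9, an established line from a squamous carcinoma of the human tongue. The genes were taken by name: every probe set annotated with exactly 1 gene symbol, that symbol being one of these, was used, which gave 28 probe sets for 10 genes, of 18132 genes named on the array. The mimic group (2 arrays) had received a miR-585-5p mimic and the control group (2 arrays) the control small RNA miR-NC. Transfection was at 30 nM, 24 hours after seeding, and RNA was taken 36 hours later. Both groups are transfected cells of the same line, and no untransfected cells or other dose were analysed here. Nothing in the labels states that the 2 arrays of either group are separate cultures. P-values here therefore reflect just the spread among these samples, possibly a technical one, and precision is limited by the number of arrays.

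TEAD proteins bind DNA but activate transcription poorly alone. They are switched on by the coactivators YAP1 and TAZ (gene WWTR1), which the kinases of the Hippo pathway keep out of the nucleus, and VGLL4 competes with YAP1 for the same TEAD surface. Angiomotins are scaffold proteins of cell junctions and actin that bind YAP1 and hold it in the cytoplasm or at junctions. CCN1 and CCN2 are matricellular proteins and, with AMOTL2, are among the genes most often read as TEAD and YAP1 targets, so AMOTL2 is both a regulator and a target. In squamous epithelia this pathway is known for its part in proliferation and wound repair.

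The small RNA that separates the groups is shown here because it is the only labelled difference between them, with its seed (bases 2 to 8) in capitals. RefSeq places it on GRCh38.p14 at chr5:169263649-169263670, minus strand.
miR-585-5p: cUAGCACAcagauacgcccaga
The TEAD binding motif GGAATG, or its reverse complement CATTCC, was searched in the RefSeq promoter windows (250 bases before to 50 bases after a start site, GRCh38.p14); no matches overlapped in the windows shown. The table holds 13 windows for 7 of the 10 genes, and 2 windows hold the motif, 1 of AMOTL2 and 1 of CCN2. TEAD1, TEAD4 and CCN1 have no entry. Of all 35116 windows of the same length, 14.0% hold it at least once and 0.128% hold it 3 or more times. These 2 windows, of a gene that fell and of a gene near background, are shown with the motif in capitals.
AMOTL2, chr3:134374398-134374697, minus strand: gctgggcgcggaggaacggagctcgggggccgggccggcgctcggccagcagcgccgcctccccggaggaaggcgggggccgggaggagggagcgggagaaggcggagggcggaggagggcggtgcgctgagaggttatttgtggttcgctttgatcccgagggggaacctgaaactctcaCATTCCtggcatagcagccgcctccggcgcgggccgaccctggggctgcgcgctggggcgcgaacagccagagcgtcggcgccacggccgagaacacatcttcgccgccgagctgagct
CCN2, chr6:131951323-131951622, minus strand: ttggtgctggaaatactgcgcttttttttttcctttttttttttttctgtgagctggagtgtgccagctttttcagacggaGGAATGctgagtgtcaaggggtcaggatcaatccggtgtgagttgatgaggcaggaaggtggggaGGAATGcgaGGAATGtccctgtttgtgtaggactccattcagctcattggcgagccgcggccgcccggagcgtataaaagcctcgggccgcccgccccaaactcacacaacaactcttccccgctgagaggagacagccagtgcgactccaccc
In AMOTL2 the motif begins 69 bases before the start site. In CCN2 the copies begin 169, 104 and 95 bases before it. A match describes the letters of the window and is no evidence of binding in these cells.

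The arrays were alike in scale. Median intensities ran from 30.6 to 31.3. Arrays of the same group correlated at 0.997 and 0.998 across probe sets, and across groups at 0.978 to 0.982. The GAPDH 3' to 5' ratio, which reads RNA quality, lay at 1.11 with the mimic and at 1.16 to 1.22 with miR-NC, and that of ACTB at 13.8 to 14.4 over the 4 arrays, far from 1. Spiked poly(A) RNAs averaged 0.35 higher (log2) on the mimic arrays and hybridization spikes differed by -0.05. The part of the 3' to 5' ratios in the results was not tested. Results with the arrays scaled on either set of spikes are given below, and the cause of the spike differences was not tested. All 6 squamous epithelial markers with a probe set (KRT5, KRT14, DSG3, CDH1, EPCAM and SFN) were above background on all 4 arrays, 3 of them lower and 3 higher with the mimic (limma adjusted p under 0.05). Their summed intensity was 20443 to 21328 on the mimic arrays and 19423 to 20119 on the control arrays. Of 12 markers of fibroblasts, leukocytes and endothelium, 5 were above background on all arrays (PDGFRB, CD68, CD79A, PECAM1 and VWF). CD3E was above it on both control arrays and COL1A2 on 1 mimic array, while COL3A1, DCN, LUM, PTPRC and CDH5 were at background on every array. The summed intensities were 71.6 to 75.8 (mimic) and 73.0 to 75.5 (control) for fibroblasts, 119 to 136 and 144 to 149 for leukocytes, and 67.5 to 70.7 and 73.8 to 77.8 for endothelium. Background means the brightest of 20 control probe sets with no human target, which read 14.2 to 16.8 depending on the array.

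Of the 10 genes, 6 fell in the mimic group, 2 did not pass the test and 2 were too dim to be tested. TEAD3, AMOTL2, TEAD2, CCN1, AMOTL1 and TEAD1 fell, in order of size, TEAD4 and VGLL4 did not pass, and AMOT and CCN2 lay under the filter (mean intensity above about 12, the 30th percentile of probe sets). Calls are adjusted p under 0.05 in limma, with adjustment over all 14122 genes tested, each read by its brightest probe set. Over all those genes, 26.9% were lower and 28.1% higher in the mimic group, 55% in all. Both mimic arrays lay below both control arrays for 6 of the 8 tested genes and for 42.9% of all genes, and above them for 0 of the 8 and for 36.5% of all. The median log2 change was -0.59 over the 8 tested genes and -0.06 over all genes tested. The 10 genes, like the lists below, were chosen with earlier results of these data known. In a whole-culture measurement, fewer cells with a transcript and less of it per cell cannot be told apart.

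**Figure D1:**
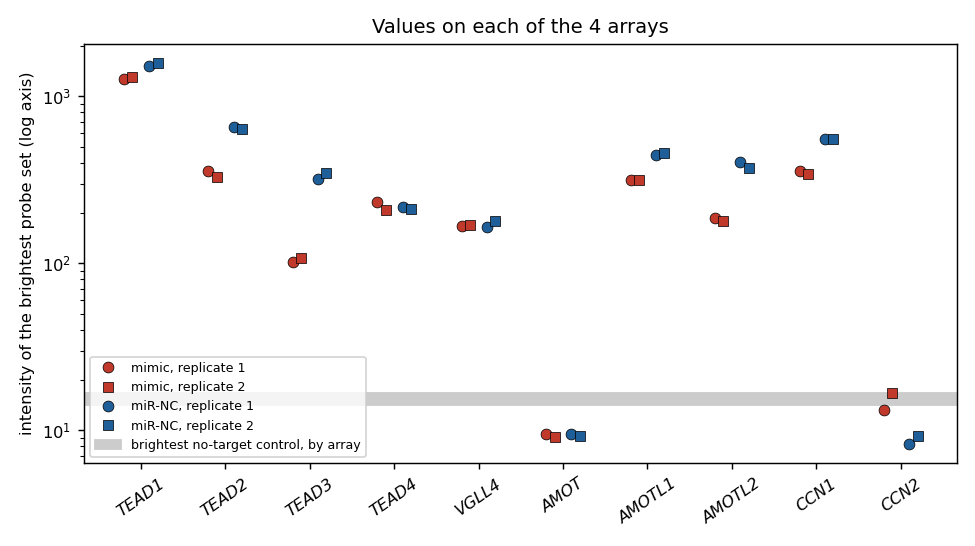
Intensity (log axis) of the brightest probe set of each of the 10 genes on the 2 mimic arrays (red) and the 2 miR-NC arrays (blue), with the range of the brightest no-target control over the arrays as a grey band. For TEAD1, TEAD2, TEAD3, AMOTL1, AMOTL2 and CCN1 both mimic points lie below both control points, while AMOT lies under the band. Intensities of different probe sets are not comparable as levels.

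Of the TEAD factors, TEAD3, TEAD2 and TEAD1 fell and TEAD4 did not pass the test. TEAD3, which is known from placenta and from epithelia, read 102 and 107 with the mimic and 321 and 346 with miR-NC. The mimic values were the lower ones with a wide gap between the groups. TEAD3 went from 334 ± 17.6 to 104 ± 3.49 (SD, n = 2), a change of -1.68 ± 0.08 (log2, SE) or 3.20-fold lower (limma adjusted p = 5.54e-08), and 75 of the 14122 genes had a lower log2 change. It was measured by 1 probe set, so no second probe set checks it.

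TEAD2, known from early development, read 357 and 331 with the mimic and 657 and 632 with miR-NC. The groups did not overlap, and the change was -0.91 ± 0.07 (log2, SE, n = 2 per group, limma adjusted p = 8.96e-07), 1.88-fold lower. Its 3 other probe sets also fell, by less: the log2 changes were -0.34 ± 0.11, -0.55 ± 0.12 and -0.43 ± 0.16 (SE, limma over probe sets, adjusted p = 0.0211, 0.00254 and 0.0461). The dimmest of them read 19.0 and 14.0 on the mimic arrays and was above background on 1 of them. With the mean of all its probe sets TEAD2 was at -0.56.

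TEAD1, a broadly expressed TEAD, read 1275 and 1307 with the mimic and 1522 and 1580 with miR-NC. The groups were separate but close, and the change was -0.26 ± 0.05 (log2, SE, n = 2 per group, limma adjusted p = 8.49e-04), 1.20-fold lower. A second probe set fell by 0.36 on the log2 scale (24.7 and 25.9 against 33.5 and 31.5, limma adjusted p = 0.0340), and the third read 6.55 to 9.85, under background on all arrays. Of all genes tested, 28.5% had a lower log2 change than TEAD1.

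TEAD4, which acts in trophectoderm and in several carcinomas, read 233 and 207 with the mimic and 216 and 211 with miR-NC. The groups overlapped. The log2 change was 0.04 ± 0.08 (SE, n = 2 per group, limma adjusted p = 0.688), with a 95% interval from -0.14 to 0.22. That interval holds neither the change of TEAD3 nor that of TEAD2 or TEAD1, though the differences between the TEAD genes were not tested. Scaling on the poly(A) spikes put TEAD4 at -0.30 (called lower), and without mimic replicate 1 it was -0.041.

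VGLL4, which competes with YAP1 for TEAD, read 168 and 169 with the mimic and 165 and 179 with miR-NC with its brightest probe set. The mimic values lay between the control values. The change was -0.03 ± 0.08 (log2, SE, n = 2 per group, limma adjusted p = 0.776), with a 95% interval from -0.21 to 0.15. A second probe set gave -0.09 ± 0.10 and did not pass. The third and dimmest read 26.8 and 37.2 against 23.8 and 20.7, and rose by 0.51 ± 0.17 (log2, SE, limma over probe sets, adjusted p = 0.0222). Its 2 mimic arrays differ more than its control arrays do, and the call was lost without mimic replicate 2 and without control replicate 2. The direction given by the brightest probe set turned to 0.023 with the hybridization spikes, to 0.028 without control replicate 2 and to 0.13 when all probe sets were averaged. With the poly(A) spikes it was -0.38 and passed.

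**Figure D2:**
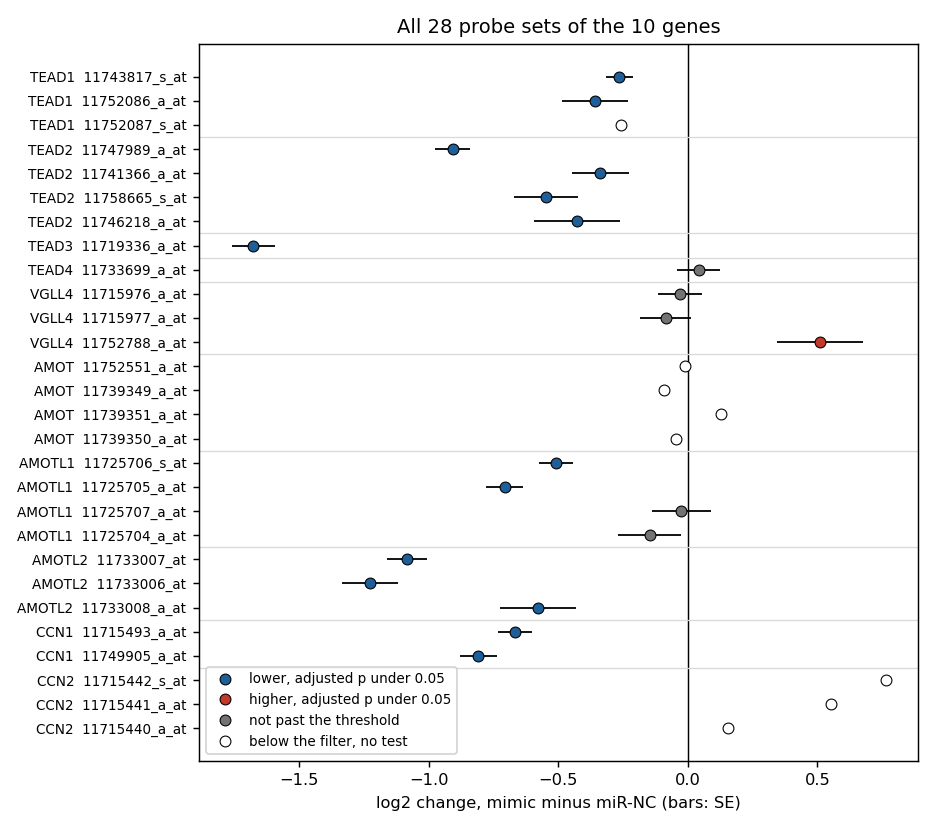
Log2 change (mimic minus miR-NC) of each of the 28 probe sets with its SE from limma (n = 2 per group), blue where lower, red where higher, grey where not past the threshold, and open where the probe set was too dim to be tested. Every tested probe set of TEAD1, TEAD2, TEAD3, AMOTL2 and CCN1 is lower, those of AMOTL1 split, and 1 of VGLL4 is higher.

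The angiomotins that could be measured also fell. AMOTL2, a junctional scaffold that binds YAP1, read 186 and 180 with the mimic and 403 and 372 with miR-NC. The mimic values were below the control values by a wide margin. The change was -1.08 ± 0.07 (log2, SE, n = 2 per group) or 2.12-fold lower (limma adjusted p = 6.18e-07). A second probe set read 51.7 and 46.7 against 109.5 and 120.3 and changed by -1.22 ± 0.11 (log2, SE, limma over probe sets, adjusted p = 1.41e-06). The third was at background on both mimic arrays and was at least 1.35-fold lower there, measured means being 13.3 and 19.8 (adjusted p = 0.00542). This bound sets the mean log2 of the brighter group against that of the background, or of the probe set where higher, on the dimmer arrays. All 3 probe sets of AMOTL2 thus lie on the same side.

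AMOTL1, a paralog that acts in the same way at junctions, read 317 and 316 with the mimic and 444 and 455 with miR-NC. The groups were separate, with a change of -0.51 ± 0.06 (log2, SE, n = 2 per group, limma adjusted p = 5.04e-05), 1.42-fold lower. A second probe set read 263 and 260 against 442 and 412 and changed by -0.71 ± 0.07 (log2, SE, limma over probe sets, adjusted p = 4.63e-06). The other 2 probe sets of AMOTL1 did not pass. They read 34.99 to 50.9 over the arrays, above background, with log2 changes of -0.03 ± 0.11 and -0.15 ± 0.12 (SE). Which transcripts of AMOTL1 each probe set reads was not analysed here.

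AMOT, the founding angiomotin, was at background: its 4 probe sets read between 2.99 and 9.53 on all 4 arrays. The brightest read 9.53 and 9.08 with the mimic and 9.44 and 9.29 with miR-NC, and no difference of AMOT was detectable at this signal.

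Of the CCN genes, CCN1 fell and CCN2 was close to background. CCN1, an immediate early matricellular protein, read 357 and 342 with the mimic and 554 and 555 with miR-NC. The mimic arrays were the lower ones, and the change was -0.67 ± 0.06 (log2, SE, n = 2 per group, limma adjusted p = 5.66e-06), 1.59-fold lower. The other CCN1 probe set read 203 and 199.7 against 353 and 351.4 and changed by -0.81 ± 0.07 (log2, SE, limma over probe sets, adjusted p = 1.60e-06).

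CCN2, also called connective tissue growth factor, read 13.1 and 16.7 with the mimic and 8.24 and 9.22 with miR-NC with its brightest probe set. It was above background on 1 mimic array and on no control array, so no fold is given. Its other 2 probe sets read 4.57 to 7.60 and were under background on all arrays. The mimic values of the brightest probe set were the higher ones, but with the control arrays at background no size is given for that difference. The CCN2 window printed above holds 3 copies of the TEAD motif.

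Counted by probe set, 20 of the 28 were bright enough to be tested, of which 14 were lower, 1 was higher and 5 did not pass (limma adjusted p under 0.05 over 31752 probe sets). Over all probe sets tested, 24.2% were lower and 27.2% higher, 51.4% in all. Both mimic arrays lay below both control arrays for 16 of the 28 probe sets, where 39.4% of all probe sets with 1 gene symbol did. Among the 20 tested ones they lay below for 15, beside 40.6% of all tested. Both mimic arrays lay above both control arrays for 4 of the 28. That share was not counted over all probe sets, and over all genes tested it was 36.5%. Of these 4, 1 of VGLL4 was tested, while 1 of AMOT and 2 of CCN2 were too dim to be tested. Probe sets of 1 gene share a target and are not replicates of the condition.

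The coactivators that TEAD factors need went apart. YAP1 read 871 and 770 with the mimic and 2618 and 2591 with miR-NC. It fell 3.18-fold, a change of -1.67 ± 0.06 (log2, SE, n = 2 per group, limma adjusted p = 9.60e-09), and all 8 of its probe sets were lower, with log2 changes from -1.67 to -0.51. WWTR1, which encodes TAZ, the paralog of YAP1, read 178 and 162 against 110.5 and 115.8. It rose by 0.59 ± 0.09 (log2, SE, limma adjusted p = 2.05e-04), and all 3 of its probe sets were higher. In the list of YAP and TAZ partners and other CCN genes, 4 of 7 tested genes fell and 1 rose, beside 26.9% and 28.1% of all genes tested, with a median log2 change of -0.59. Besides YAP1, those that fell were VGLL1, a TEAD cofactor, at -1.11 ± 0.10, its relative VGLL3 at -0.59 ± 0.09, and CCN5, a further CCN protein, at -0.60 ± 0.12 (log2, SE, n = 2 per group). CCN3 (-0.19) and VGLL2 (-0.09) did not pass, and CCN4 and CCN6 were too dim to be tested.

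In a published 22-gene signature of YAP and TAZ activity, chosen with earlier results of these data known, more genes fell than rose. Without AMOTL2, CCN1 and CCN2 the list holds 19 genes, of which 18 were tested, 10 fell and 4 rose, with a median log2 change of -0.38 against -0.06 over all genes tested and 26.9% lower and 28.1% higher among them. DOCK5, an exchange factor for Rac, was at -1.36 ± 0.08, CCDC80, a matrix protein, at -1.18 ± 0.07, and the membrane repair protein MYOF at -0.78 ± 0.04 (log2, SE, n = 2 per group). Tissue factor (F3), which starts coagulation, rose by 1.17 ± 0.07, and the other risen genes were FJX1 0.68, NT5E 0.47 and GADD45A 0.46. AXL, a receptor kinase often read as a YAP1 target, was at 0.09 ± 0.07 and did not pass. ANKRD1, another target gene, was too dim to be tested (4.42 and 5.02 against 6.35 and 11.2). PTPN14 and TGFB2, among the 10, were at background in the mimic group, PTPN14 being at least 1.16-fold lower there and TGFB2 at least 1.17-fold. The mimic mean of PTPN14 lies under the filter, so it was tested only through its control arrays, and its call had to be lower if any. PTPN14, which holds YAP1 in the cytoplasm, and LATS2 stand in this list and in the Hippo list.

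**Figure D3:**
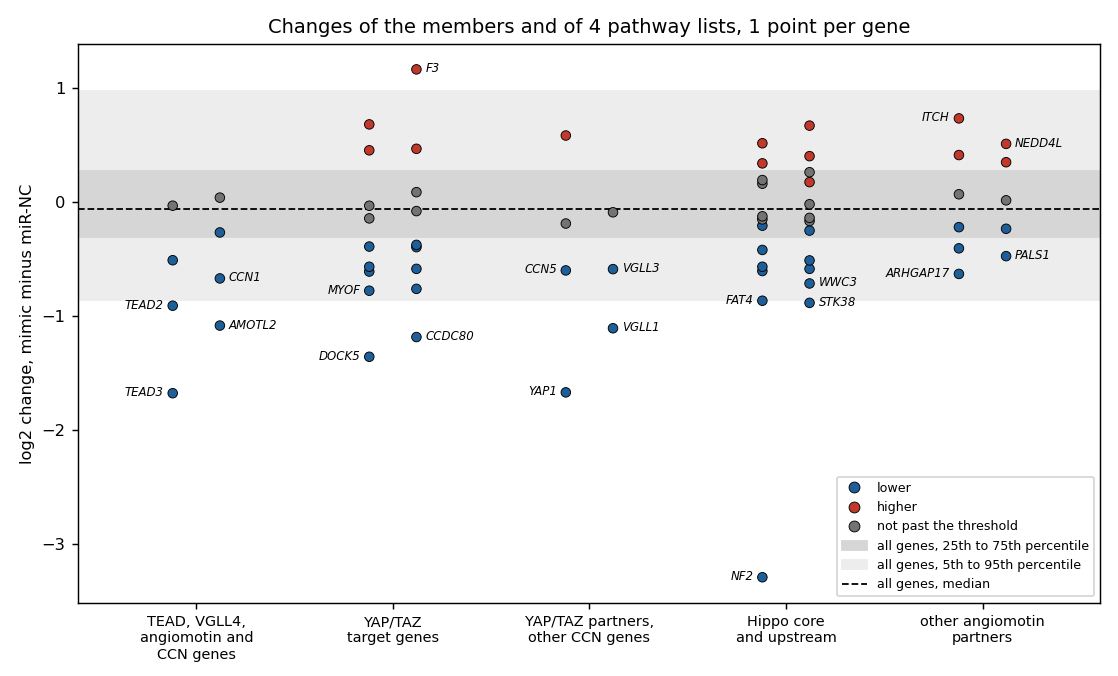
Log2 change (mimic minus miR-NC) of each tested gene, 1 point per gene, for the 8 tested TEAD, VGLL4, angiomotin and CCN genes and for 4 pathway lists, coloured by call, with names at the 4 largest changes of each. Grey bands give the 25th to 75th (-0.30 to 0.27) and 5th to 95th (-0.86 to 0.98) percentiles of all 14122 genes. TEAD3, TEAD2 and AMOTL2 lie below the 5th percentile.

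Upstream, the Hippo genes moved both ways. Of 28 listed genes 26 had a probe set and 24 were tested, of which 11 fell, 5 rose and 8 did not pass, with a median of -0.16 (log2), where 26.9% of all genes tested fell and 28.1% rose. NF2, which encodes merlin, an upstream activator of the pathway, read 80.9 and 62.4 against 684 and 708, a change of -3.29 ± 0.11 (log2, SE, n = 2 per group, limma adjusted p = 5.54e-09). Of its 7 probe sets 5 were lower, with log2 changes from -3.29 to -0.41. The brightest one, given here, changed most, and the next largest change was -1.69. Of the 5, the one at -0.41 was at background on all 4 arrays and passed the filter only through its control values. The kinase LATS2, which phosphorylates YAP1 and is itself in the target signature, read 285 and 284 against 413 and 440, a change of -0.58 ± 0.07, though 1 of its 3 probe sets carried the call. LATS1, its paralog, was at background on all arrays. STK38, a kinase related to LATS, was at -0.88 ± 0.06 and WWC3, a relative of the scaffold KIBRA, at -0.71 ± 0.08 (log2, SE). The atypical cadherin FAT4 was at background on the mimic arrays and at least 1.59-fold lower there (12.2 and 13.3 against 26.5 and 20.4). PTPN14, also counted among the 11, was tested only through its control arrays. The 5 that rose were the LATS adaptors MOB1A 0.67 and MOB1B 0.52, the MST2 kinase STK3 0.41, TAOK1 0.34 and DLG5 0.18 (log2). Without mimic replicate 1 fewer of the Hippo genes rose, as did fewer of all genes tested.

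Other partners of angiomotins split. Of 11 tested genes 5 fell and 4 rose, beside 26.9% and 28.1% of all genes tested, with a median log2 change of 0.02. The ubiquitin ligases ITCH and NEDD4L, of a family that binds angiomotins, rose by 0.74 ± 0.08 and 0.51 ± 0.08 (log2, SE, n = 2 per group). PALS1, a polarity scaffold, was at -0.47 ± 0.10 and ARHGAP17, a GTPase activating protein that binds AMOT, at -0.63 ± 0.12. With either mimic array left out fewer of them fell, as did fewer of all genes tested. The number that fell was 3 with a fit that takes no mean-variance trend, beside 3724 of all 14122 genes. It was also 3 without cross-hybridizing probe sets, beside 3242 of 12585 genes.

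The genes most like TEAD3 over the 4 arrays were TCTA, CDS1, which makes CDP-diacylglycerol, and LRATD1. Likeness was the Euclidean distance between log2 values, each gene centred on its own mean, and came to 0.05, 0.06 and 0.07. Their log2 changes, close to that of TEAD3 because of this choice, were -1.63, -1.72 and -1.72, beside -1.68 for TEAD3.

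Among the scalings tried, only that on the poly(A) spikes changed calls of the 8 tested genes. On the scale of the poly(A) spikes the median of all genes moved from -0.06 to -0.40 (log2), and 16.4% of the calls over all genes were higher in place of 51.1%. All 8 tested genes were then lower, TEAD4 at -0.30 and VGLL4 at -0.38 included, beside 8200 of all 14122 genes tested. The spikes shift all genes of an array alike, so changes relative to the median gene are the same on either scale by construction. They are -1.62 for TEAD3, -1.02 for AMOTL2, -0.85 for TEAD2 and -0.61 for CCN1. For AMOTL1, TEAD1, VGLL4 and TEAD4 they are -0.45, -0.21, 0.03 and 0.10. On the poly(A) scale 13 of the YAP and TAZ targets were lower and 2 higher, and 16 and 1 of the Hippo list. The partners and other CCN genes had 6 and 0, WWTR1 no longer past the threshold, and the angiomotin partners 7 and 1. These counts stand beside 8200 lower and 1613 higher of all 14122 genes tested. GAPDH and ACTB were at 0.15 and 0.34 on the deposited scale, both called higher (limma adjusted p = 0.00194 and 0.0115).

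**Figure D4:**
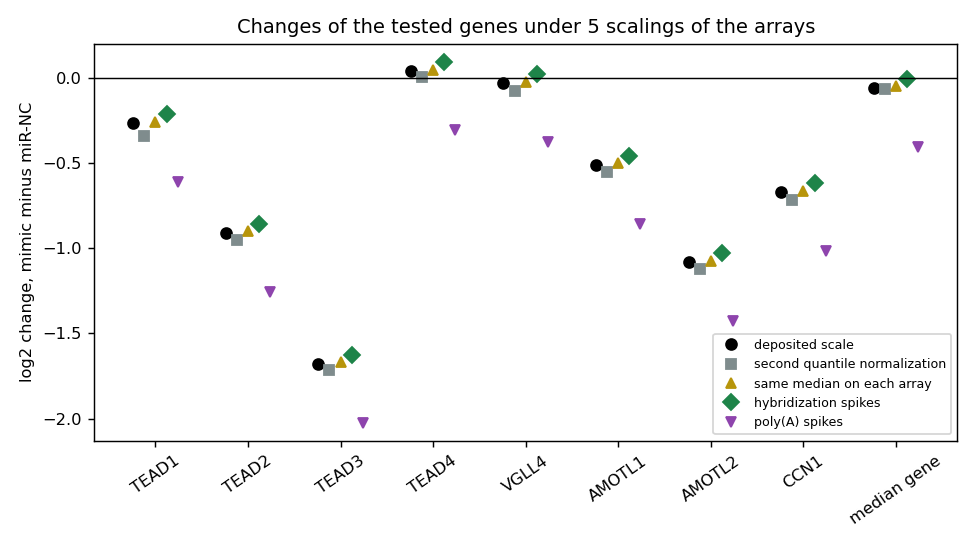
Log2 change (mimic minus miR-NC) of the 8 tested genes and of the median gene under 5 scalings of the arrays. Against the deposited scale the poly(A) spikes lower every value by 0.35, which brings TEAD4 below 0, while TEAD3, AMOTL2, TEAD2, CCN1, AMOTL1 and TEAD1 are below 0 under each of the 5.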

How the data were processed

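Deposited probe set intensity values of 4 arrays were used. RMA is named for them, per the submitters' processing notes. They lie on a linear scale, so their log2 was taken. The annotation names 44988 of 49395 probe sets with 1 symbol, 1832 with several and 2473 with none, besides 102 controls, and only the first were used. Genes with no such probe set were not analysed here. Each gene took its brightest probe set, filtered at the 30th percentile, and a further fit took every probe set above it. Tests were limma 3.58.1 (R 4.3.3), moderated with an intensity trend, mimic minus control, two-sided, Benjamini-Hochberg adjusted over all features, threshold 0.05, with 2 residual degrees of freedom and 8.35 from the prior. The fit was also run on simulated data with no shift between the arrays, so that run does not bear on the scaling. Members and lists were chosen with earlier results of these data known. The text names all members, up to 4 called genes of each list with the largest changes, YAP1, WWTR1, NF2, LATS1 and LATS2, the 3 genes nearest to the most changed member, GAPDH and ACTB. Other list genes were named after their values were seen. Alternatives changed the scaling, filter, spread, pseudocount (16), probe set and arrays used. Promoter and microRNA sequences are from RefSeq (GRCh38.p14).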

Additional observations from a re-analysis of the deposited data

How the results depend on the processing

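TEAD1, TEAD2, TEAD3, AMOTL1, AMOTL2 and CCN1 kept their direction and their call under all 17 alternatives, and the number of these 10 genes called lower was 6 to 8. In the 4 alternatives that leave out an array, the lone sample of its group is assumed to vary like the other group. The number called higher was 0, and 1 (CCN2, at background on the control arrays) when no filter was applied. Among their probe sets 14 were lower and 1 higher. With all arrays kept, the number lower ran from 11 (hybridization spikes, and above the 50th percentile) to 19 (poly(A) spikes). The number higher was 3 without a filter, 0 above the 50th percentile, 0 without the mean-variance trend and 0 with the poly(A) spikes. Shares over all probe sets under these settings were not counted, and with the poly(A) spikes most genes tested were lower too. TEAD4 turned to -0.30 with the poly(A) spikes and ran from -0.041 to 0.12 with each array left out. VGLL4 turned to 0.023 with the hybridization spikes, to 0.13 when all probe sets were averaged, was -0.38 (called) with the poly(A) spikes, and ran from -0.087 to 0.028 with each array left out. With the poly(A) spikes 8200 genes were lower and 1613 higher, and the risen genes numbered 1 of the Hippo list, 0 of the YAP and TAZ partners, 2 of the YAP and TAZ targets and 1 of the angiomotin partners. Leaving out each array gave 2509 to 4041 lower genes in all, 3 to 6 risen Hippo genes and 2 to 5 fallen angiomotin partners, the last count being 3 without the trend and 3 without cross-hybridizing probe sets. The replicate numbers are not said to pair cultures. Their deviations correlated at 0.05, and with the replicate block 6 of the 10 genes were lower, beside 4121 lower and 4132 higher genes in all. Signal limits what can be said of AMOT and CCN2. The cause of these shifts was not tested.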
